A study of Rattus norvegicus with 6 samples.

Results

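The scaffold proteins of the postsynaptic density were examined at the mRNA level in primary hippocampal neurons with raised or lowered Cyclin Y (CCNY). The gene list was Dlg1, Dlg2, Dlg3, Dlg4, Shank1, Shank2, Shank3, Homer1, Homer2 and Homer3, read by gene symbol. Of these 10 genes, 9 were read from the deposited table of 17066 genes, and Homer1 was not analysed here. The neurons came from embryonic day 18 Sprague-Dawley rats, and all cultures were infected with lentivirus on day 5 or 6 in vitro and lysed for RNA on day 14. The virus carried EGFP alone (EGFP, the control), CCNY-WT-EGFP (CCNY-WT, overexpression) or CCNY-shRNA-EGFP (CCNY-shRNA, knockdown), from the FUGW vector, and the control virus carried no hairpin. Sequencing gave 2 libraries for each of the 3 conditions, called replicates 1 and 2, and EGFP, CCNY-WT and CCNY-shRNA are also called control, overexpression and knockdown here. The labels do not say whether these came from separate cultures, so the p-values measure the spread between these libraries only, which may be technical.

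The postsynaptic density is a protein mesh under the membrane of excitatory synapses that holds glutamate receptors in place and ties them to signalling enzymes and to actin. DLG proteins (membrane-associated guanylate kinases) lie closest to the membrane and grip the tails of receptors and adhesion proteins with PDZ domains. SHANK proteins lie deeper and are joined to DLG proteins through the GKAP adaptors (Dlgap genes), and HOMER proteins cross-link SHANK with metabotropic glutamate receptors and calcium release channels. CCNY is a cyclin found at postsynaptic sites, and the comparisons ask how scaffold transcripts stood when it was raised or lowered.

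Expression was measured by RNA-seq of poly-A RNA as FPKM, a count of sequenced fragments scaled to transcript length and library depth, which the authors computed with Cufflinks after mapping to rn4. Because length is taken into account, levels are set side by side between genes, as far as the transcript models behind the values allow. Unc13a, a presynaptic gene, and Bdnf, an activity-regulated gene, were listed at 0 in every library. Whether they were unexpressed or not captured was not tested. The table gives 1 value per gene, so splice forms and alternative start sites were not told apart. The table holds no read counts, so the depth is unknown, and the most common step between libraries among weakly expressed genes gave relative depths of 0.818 to 1.33, with EGFP replicate 1 set to 1. Ccny read 43.1 and 42.3 for the control pair, 108 and 109 under overexpression, and 5.98 and 6.19 under knockdown, so each condition carried the change its label names. Of 15 neuronal marker genes, 15 had an FPKM of at least 10 in every library, with a summed FPKM of 5645 to 5741 for the control pair, 5572 to 5611 under overexpression and 5648 to 5685 under knockdown. Gad2, the GABA-synthesizing enzyme of inhibitory neurons, was the neuronal marker that passed the test, with 170.4 and 173 for the control pair, 176 and 181 under overexpression, and 129 and 129 under knockdown (limma's adjusted p = 0.0226 for the knockdown against EGFP). Although the cultures are described as holding few glia, astrocyte markers were also expressed (7 of 9 at 10 or more in every library), and their sum was 538 to 577 for the control pair, 565 to 572 under overexpression and 470.3 to 542 under knockdown. Of 10 microglial markers, 9 stayed below 1 throughout, and Aif1 was listed at 0 in each library. Since the RNA came from whole cultures, fewer cells of a type and less RNA per cell cannot be told apart.

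The scaffold genes spread over a wide range of levels, with Dlg4 alone far above the rest. Over the 6 libraries the mean FPKM was 317 for Dlg4, 85.4 for Shank1, 82.3 for Dlg2, 52.0 for Shank3, 50.3 for Dlg3, 43.0 for Homer3, 34.5 for Shank2, 10.2 for Homer2 and 9.07 for Dlg1. The ranges of neighbouring genes over the libraries stood apart at 3 steps of this order, which were Dlg4 over Shank1 (3.71-fold), Dlg2 over Shank3 (1.58-fold) and Shank2 over Homer2 (3.38-fold). At the other 5 steps the ranges overlapped, although Homer3 was above Shank2 and Homer2 above Dlg1 in each of the 6 libraries. Shank1 was above Dlg2, and Shank3 above Dlg3, in 4 of the 6. In EGFP neurons, 98.2% of all listed genes had a lower mean FPKM than Dlg4, and 59.7% a lower one than Dlg1. The lowest value of any of the 9 genes was 8.61, so neither the floor at 1 nor the filter on low values touched them.

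**Figure D1:**
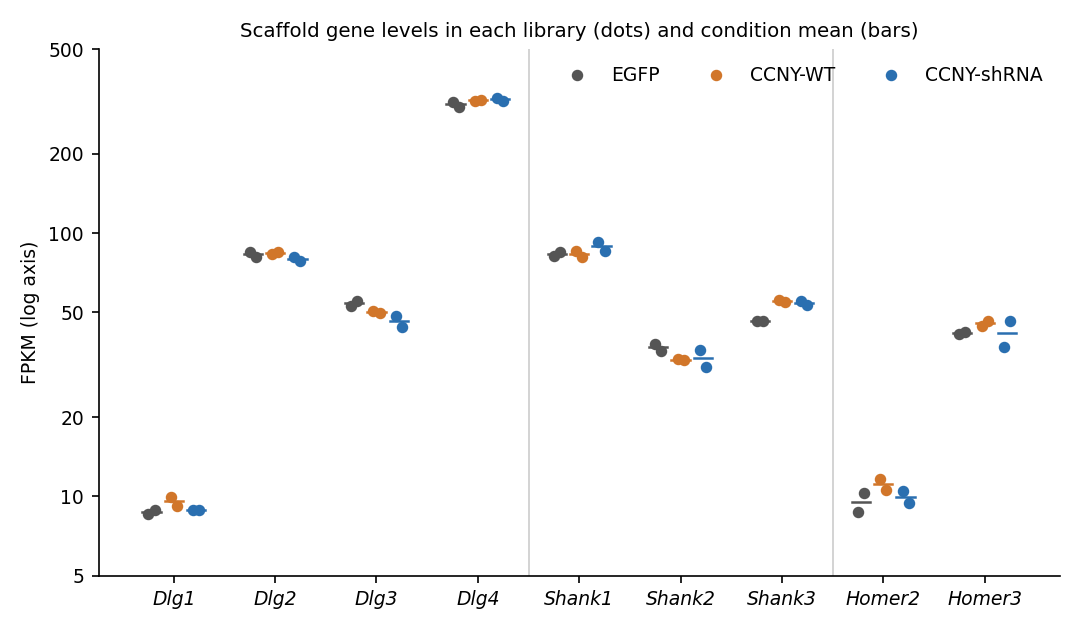
FPKM (log axis) of the 9 scaffold genes in each library (dots; grey, EGFP; orange, CCNY-WT; blue, CCNY-shRNA), with the mean of each condition as a bar and vertical lines between the gene families. Dlg4 lies between 302 and 327 in every library and Dlg1 between 8.61 and 9.95, and the difference between genes is far larger than that between conditions except among close neighbours.

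The sequences before the annotated start were looked up in RefSeq (GRCr8, a later build than rn4) and were found for 5 of the 9 genes. The 250 bases before the start are shown for Dlg4 and Shank3, to set their base composition side by side. Dlg4 was the most abundant gene, and Shank3 had the largest log2 change from EGFP by size in CCNY-WT and CCNY-shRNA. Capitals mark CG dinucleotides, the sites of DNA methylation. Dlg4 lies on the plus strand at chr10:55239534-55239783 and Shank3 on the plus strand at chr7:122448073-122448322.
Dlg4: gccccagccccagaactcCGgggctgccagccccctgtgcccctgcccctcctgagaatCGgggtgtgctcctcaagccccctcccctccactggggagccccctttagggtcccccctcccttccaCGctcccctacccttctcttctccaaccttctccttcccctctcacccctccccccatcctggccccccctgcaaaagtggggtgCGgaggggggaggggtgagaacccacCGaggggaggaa
Shank3: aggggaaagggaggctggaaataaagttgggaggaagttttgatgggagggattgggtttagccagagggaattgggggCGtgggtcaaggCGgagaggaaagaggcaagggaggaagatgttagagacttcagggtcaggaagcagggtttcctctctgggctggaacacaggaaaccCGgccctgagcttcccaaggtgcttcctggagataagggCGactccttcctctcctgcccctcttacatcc
CG occurred 5 times in the Dlg4 window and 4 times in that of Shank3, 4 times for Homer3, 1 time for Dlg2 and 17 times for Dlg1, beside a median of 5 over 33465 promoters of the same length. The order of these counts is not that of the levels, since Dlg1, with the most CG, had the lowest FPKM. The letters TATAAA, read on both strands, occurred in 0 of the 5 windows and in 12.9% of all promoters. Other start sites of these genes were not looked at, and methylation was not measured.

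No scaffold gene passed the test in any comparison. Tests used limma on log2 FPKM floored to 1, over all 6 libraries, for the 10188 genes that reached an FPKM of 1 in 2 libraries or more, and a p adjusted over all of these genes (Benjamini-Hochberg) under 0.05 was called a change. In CCNY-WT against EGFP, 0 of the 9 genes passed limma's adjusted threshold and 1 (Shank3) had an unadjusted p under 0.05, against 0.00982% and 6.83% of all genes tested. In CCNY-shRNA against EGFP, 0 of the 9 passed the adjusted threshold and 2 (Shank3 and Dlg3) had an unadjusted p under 0.05, against 0.746% and 18.6% of all genes tested. In CCNY-shRNA against CCNY-WT, 0 of the 9 passed by limma's adjusted p and 0 had an unadjusted p under 0.05, against 0.216% and 12.2%. The study's own size criterion, a log2 difference of 0.3 (overexpression) or 0.33 (knockdown), was reached by 0 of the 9 in either condition, against 8.35% and 13.1% of all genes tested. The median log2 change of the 9 genes was 0.05 in CCNY-WT and 0.02 in CCNY-shRNA, beside 0.0041 and 0 over all genes tested, and the summed FPKM of the 9 was 668 to 679 for the control pair, 691 to 694 under overexpression and 674 to 697 under knockdown. Both comparisons with EGFP share the same 2 control libraries and are therefore not independent of each other.

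**Figure D2:**
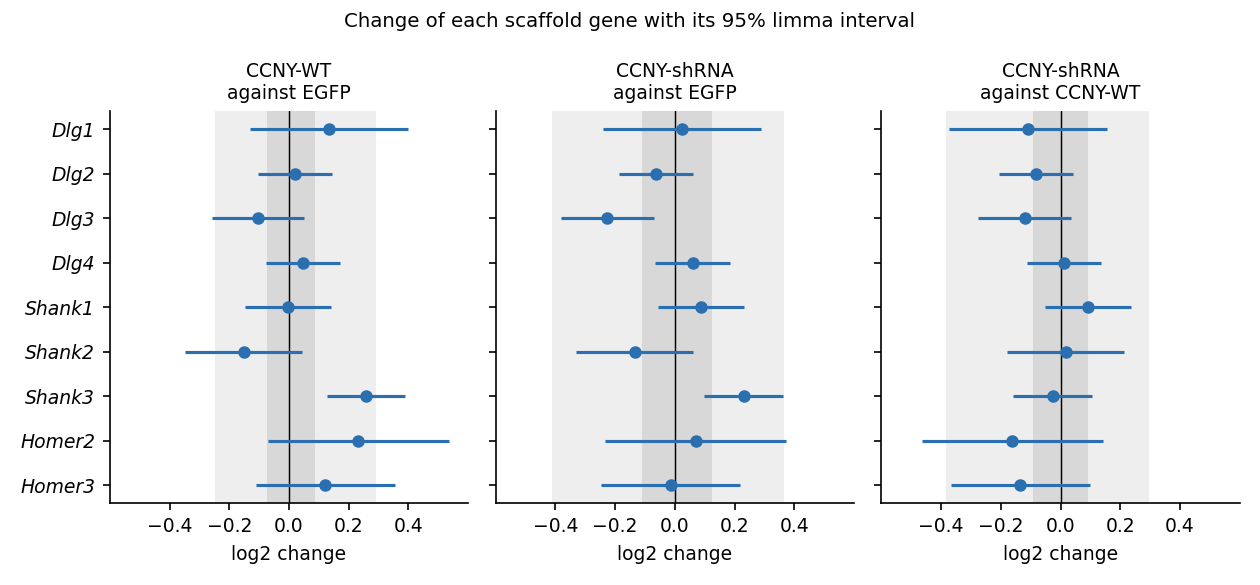
Log2 change of the 9 scaffold genes (dots) with 95% limma intervals (lines) in the 3 comparisons; dark and light grey bands hold the central 50% and 95% of the log2 changes of all 8055 genes with a mean FPKM of at least 5. All 9 dots lie inside the light band in each comparison, and the interval lies wholly on one side of 0 for Shank3 in both comparisons with EGFP and for Dlg3 in CCNY-shRNA against EGFP.

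Among the DLG genes, Dlg4 encodes PSD-95, the main scaffold of the mature excitatory synapse, which anchors NMDA receptors and the stargazin-like partners of AMPA receptors. Its FPKM was 317 and 302 for the control pair, 319 and 320.4 under overexpression, and 327 and 317 under knockdown. All 4 libraries with altered CCNY were above both EGFP libraries, but their means exceeded the EGFP mean by less than the gap between the 2 EGFP replicates. The log2 change was 0.05 in CCNY-WT (standard error, SE, 0.0538, 95% interval -0.08 to 0.17, limma's adjusted p = 0.900) and 0.06 in CCNY-shRNA (SE 0.0538, 95% interval -0.07 to 0.18, limma's adjusted p = 0.601). Dlg4 varied least of the 9, with a coefficient of variation of 2.60% over the 6 libraries, and Homer2 varied most, with 9.89%.

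Dlg2 encodes PSD-93, a close relative of PSD-95 that also binds NMDA receptors and potassium channels. Its FPKM was 84.6 and 81.6 for the control pair, 83.3 and 85.0 under overexpression, and 80.9 and 78.1 under knockdown. The CCNY-shRNA libraries were the 2 lowest, while CCNY-WT overlapped EGFP. Its log2 change was 0.02 in CCNY-WT (limma's adjusted p = 0.966) and -0.06 in CCNY-shRNA (limma's adjusted p = 0.575). Dlg1 encodes SAP97, which binds the GluA1 AMPA receptor subunit along the secretory path and also serves as a polarity protein outside synapses. It was the weakest of the family, with an FPKM of 8.61 and 8.85 for the control pair, 9.95 and 9.22 under overexpression, and 8.90 and 8.86 under knockdown. Both conditions lay above EGFP without overlap, the knockdown by a margin smaller than the rounding of these values, and the log2 change was 0.13 (limma's adjusted p = 0.862) and 0.02 (limma's adjusted p = 0.939).

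Dlg3, which encodes SAP102, the DLG protein most tied to NMDA receptor traffic in young neurons, had the lowest log2 change of the 9 in CCNY-shRNA. Its FPKM was 53.0 and 55.3 for the control pair, 50.8 and 49.9 under overexpression, and 48.5 and 44.2 under knockdown. The 3 conditions did not overlap, with EGFP highest, CCNY-WT between and CCNY-shRNA lowest. Separation of 2 conditions was common, at 39.5% (CCNY-WT against EGFP), 48.4% (CCNY-shRNA against EGFP) and 42.2% (CCNY-shRNA against CCNY-WT) of all genes tested. The share that separates all 3 was not computed. The mean FPKM in CCNY-shRNA was 0.856 times that in EGFP (46.3 ± 3.04 against 54.2 ± 1.67, SD, n = 2 each), a log2 change of -0.23 (SE 0.0667, 95% interval -0.38 to -0.07, limma's unadjusted p = 0.00997, adjusted p = 0.144). In CCNY-WT the log2 change was -0.10 (SE 0.0667, 95% interval -0.26 to 0.05, limma's adjusted p = 0.805), and between CCNY-shRNA and CCNY-WT it was -0.12 (limma's adjusted p = 0.522). Without CCNY-shRNA replicate 2 the change in CCNY-shRNA was -0.16, and without replicate 1 it was -0.29.

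Since all DLG genes are read in the same library, their shares do not depend on how libraries are scaled. Dlg4 made up 68.4% and 67.5% of the summed DLG FPKM for the control pair, 68.9% and 69.0% under overexpression, and 70.3% and 70.8% under knockdown. Dlg3 made up 11.4% and 12.4% for the control pair, 11.0% and 10.7% under overexpression, and 10.4% and 9.85% under knockdown. The sum itself hardly moved, at 455 ± 10.5 (SD, n = 2) for the control, 464 ± 1.10 under overexpression and 457 ± 11.8 under knockdown. The ratio of Dlg3 to Dlg4 was 0.167 and 0.183 for the control pair, 0.159 and 0.156 under overexpression, and 0.148 and 0.139 under knockdown, again with no overlap between the conditions. How often ratios of other genes separate like this was not computed. An exact permutation test of 2 libraries against 2 cannot give a two-sided p below 0.333, so single ratios are given as values.

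Of the 9 genes, Shank3 had the largest log2 change from EGFP by size in both CCNY-WT and CCNY-shRNA, narrowly ahead of Dlg3 (-0.23) in CCNY-shRNA. Shank3 is the SHANK member whose loss causes the autism-related Phelan-McDermid syndrome in humans, and its protein links GKAP, HOMER and actin regulators. Its FPKM was 46.3 for both control libraries, 56.0 and 54.8 under overexpression, and 55.4 and 53.3 under knockdown. The 4 libraries with altered CCNY were all above EGFP and overlapped each other. The mean FPKM was 46.3 ± 0.0480 (SD, n = 2) in EGFP against 55.4 ± 0.864 in CCNY-WT, with a log2 change of 0.26 (SE 0.0569, 95% interval 0.13 to 0.39, limma's unadjusted p = 0.00204, adjusted p = 0.507). Under knockdown it averaged 54.4, 1.17 times the control, with a log2 change of 0.23 (SE 0.0569, 95% interval 0.10 to 0.36, limma's unadjusted p = 0.00382, adjusted p = 0.0990). By size of the unadjusted p, Shank3 ranked 41 of the 10188 genes in CCNY-WT and 393 in CCNY-shRNA. CCNY-shRNA and CCNY-WT differed in Shank3 by -0.03 (95% interval -0.16 to 0.10, limma's adjusted p = 0.894). Leaving out each library in turn gave changes between 0.24 and 0.27 in CCNY-WT and between 0.20 and 0.26 in CCNY-shRNA.

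Shank2, which like Shank3 binds GKAP and is linked to autism, had a lower mean than EGFP in both conditions. Its FPKM was 37.8 and 35.8 for the control pair, 33.2 and 33.1 under overexpression, and 36.1 and 31.1 under knockdown. CCNY-WT was below both EGFP libraries, whereas CCNY-shRNA replicate 1 fell between the EGFP libraries and replicate 2 was the lowest of all. The log2 change was -0.15 in CCNY-WT (SE 0.0844, 95% interval -0.35 to 0.04, limma's adjusted p = 0.782) and -0.13 in CCNY-shRNA (SE 0.0844, 95% interval -0.33 to 0.06, limma's adjusted p = 0.431). In CCNY-shRNA it was -0.03 without replicate 2 and -0.24 without replicate 1. Shank1, the most abundant of the 3 genes, enlarges dendritic spines together with HOMER. Its FPKM was 82.2 and 85.2 for the control pair, 85.8 and 81.3 under overexpression, and 92.6 and 85.6 under knockdown. CCNY-WT overlapped EGFP, and CCNY-shRNA lay above it, with log2 changes of -0.0028 (limma's adjusted p = 0.997) and 0.09 (limma's adjusted p = 0.481). The direction of Shank1 in CCNY-WT turned under upper quartile scaling of the libraries, where the change was 0.0021.

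Within the SHANK family each ratio between genes set the control libraries apart from the other 4, and Shank2 to Shank3 differed most on the log2 scale. The ratio of Shank2 to Shank3 was 0.815 and 0.774 for the control pair, 0.593 and 0.603 under overexpression, and 0.651 and 0.584 under knockdown. No library with altered CCNY reached the EGFP values, and CCNY-WT and CCNY-shRNA overlapped each other. The difference of the mean log2 ratio from EGFP was -0.41 in CCNY-WT and -0.37 in CCNY-shRNA. In each case this was the largest by size among the 10 ratios between relatives that were computed. Shank1 to Shank2 read 2.17 and 2.38 for the control pair against 2.46 to 2.75 elsewhere. For Shank1 to Shank3 the values were 1.77 and 1.84 against 1.48 to 1.67. Most DLG ratios also stood apart from EGFP in both conditions, and the HOMER ratio overlapped. The ratios within a family share genes and are not independent of each other. How often ratios of other genes stand apart from EGFP, in 1 condition or in both, was not computed. For the FPKM of single genes, a different measure, 39.5% (CCNY-WT) and 48.4% (CCNY-shRNA) of those tested did not overlap EGFP. Shank3 made up 27.9% and 27.7% of the summed SHANK FPKM for the control pair, 32.0% and 32.4% under overexpression, and 30.1% and 31.4% under knockdown, given here without a test. Shank1 held between 48.1% and 50.9% in every library. The summed SHANK FPKM averaged 167 for the control, 172 under overexpression and 177 under knockdown, where the libraries read 184 and 170.0.

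**Figure D3:**
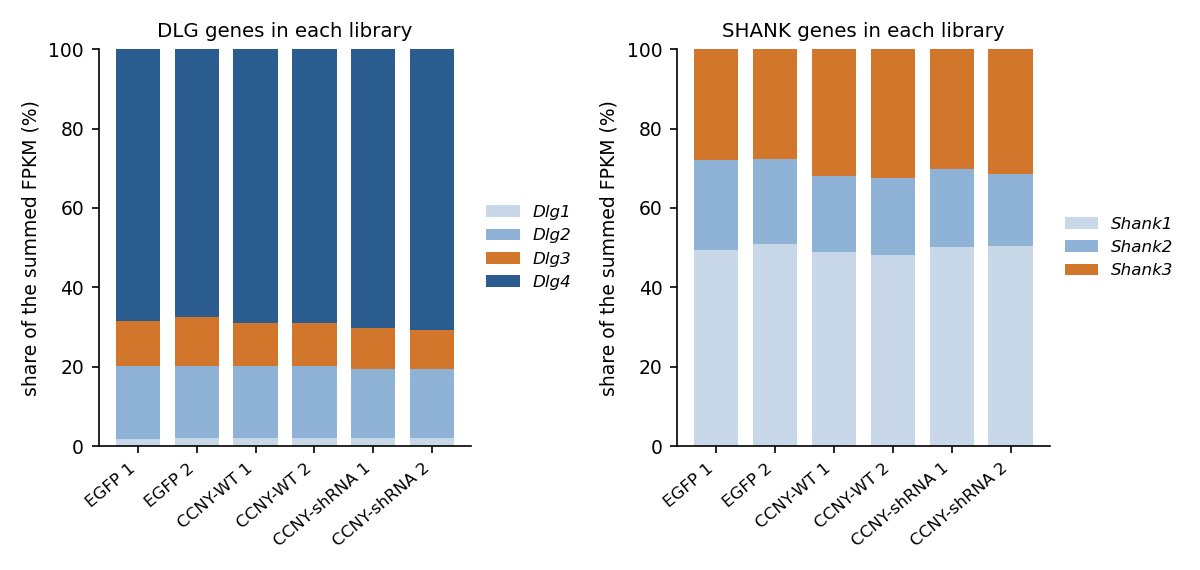
Share of the summed FPKM of the 4 DLG genes (left) and of the 3 SHANK genes (right) that each gene holds, in percent, with 1 stacked bar per library. Dlg4 holds between 67.5% and 70.8% of the DLG sum, and the Shank3 segment is 27.7% to 27.9% in EGFP and 30.1% to 32.4% in the other libraries.

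Neither HOMER gene passed the test, and the direction of both under knockdown depended on single libraries. Homer3, a long HOMER form with an EVH1 domain for partner proteins and a coiled coil for self-assembly, had an FPKM of 41.4 and 42.3 for the control pair, 44.5 and 46.5 under overexpression, and 37.1 and 46.3 under knockdown. CCNY-WT was above EGFP, while the 2 CCNY-shRNA libraries lay on either side of it. The log2 change was 0.12 in CCNY-WT (SE 0.101, 95% interval -0.11 to 0.35, limma's adjusted p = 0.858) and -0.01 in CCNY-shRNA (SE 0.101, 95% interval -0.25 to 0.22, limma's adjusted p = 0.961). The latter was -0.17 without CCNY-shRNA replicate 2 and 0.15 without replicate 1, and its direction also turned without EGFP replicate 2 (0.0012) and under upper quartile scaling (0.0048).

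Homer2, whose protein shares this layout, had an FPKM of 8.74 and 10.3 for the control pair, 11.7 and 10.6 under overexpression, and 10.4 and 9.47 under knockdown. CCNY-WT was above both EGFP libraries, and CCNY-shRNA overlapped EGFP. Its log2 change was 0.23 in CCNY-WT (SE 0.131, 95% interval -0.07 to 0.53, limma's adjusted p = 0.783) and 0.07 in CCNY-shRNA (SE 0.131, limma's adjusted p = 0.826). Without EGFP replicate 1 these were 0.12 and -0.05, and without CCNY-shRNA replicate 1 the knockdown value was -0.00032. The ratio of Homer2 to Homer3 was 0.211 and 0.243 for the control pair, 0.262 and 0.228 under overexpression, and 0.282 and 0.205 under knockdown, with overlap throughout.

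In CCNY-WT the 2 libraries did not overlap those of EGFP for 7 of the 9 scaffold genes, 5 higher and 2 lower, against 39.5% of all genes tested (20.3% higher and 19.2% lower). In CCNY-shRNA this held for 6 of the 9, with 4 higher and 2 lower, against 48.4% (23.9% higher and 24.5% lower). Between CCNY-shRNA and CCNY-WT, 4 of the 9 did not overlap, and all 4 (Dlg1, Dlg2, Dlg3 and Homer2) were lower in CCNY-shRNA, against 42.2% of all genes in either direction and 21.9% lower. With only 9 genes, 1 gene moves such a share by 11.1 percentage points.

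The partners of the scaffold proteins were described from lists written from general knowledge, with earlier results of these data known. For DLG proteins, 18 of 20 partner genes were read and tested, and 0 passed limma's adjusted threshold in CCNY-shRNA or CCNY-WT against EGFP, while 1 was higher and 7 were lower at an unadjusted p under 0.05 under knockdown (9.20% and 9.36% of all genes), with a median log2 change of -0.07. In CCNY-WT 2 were higher and 2 lower at that level (3.83% and 3.00% of all genes), with a median of -0.0053. Dlgap3, a GKAP adaptor between PSD-95 and SHANK, came closest, with 83.0 and 82.1 for the control pair, 92.2 and 94.8 under overexpression, and 102 and 101 under knockdown (log2 change 0.29 in CCNY-shRNA, SE 0.0505, limma's adjusted p = 0.0527, and 0.18 in CCNY-WT, limma's adjusted p = 0.696). Like Shank3, it was higher than EGFP in all 4 other libraries. Lgi1, a secreted protein that clusters PSD-95 through its receptor ADAM22, had 96.6 and 100.6 for the control pair against 80.9 and 79.7 under knockdown (log2 change -0.30, limma's adjusted p = 0.0738). Under overexpression Lgi1 had 85.1 and 92.4, also below both EGFP libraries. Cnksr2, a PSD-95-binding scaffold of Ras signalling, had 49.2 and 48.2 for the control pair against 42.2 and 40.8 under knockdown (-0.23, limma's adjusted p = 0.107). Its overexpression values, 48.5 and 47.4, overlapped EGFP.

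For SHANK proteins, 16 of 17 partner genes were tested and 0 passed, with a median log2 change of -0.0060 in CCNY-shRNA and 0.0012 in CCNY-WT. At an unadjusted p under 0.05, 1 was higher and 3 were lower in CCNY-shRNA (9.20% and 9.36% of all genes), and 1 higher and 0 lower in CCNY-WT (3.83% and 3.00% of all genes). After Dlgap3, the smallest p-values in CCNY-shRNA belonged to Dlgap1, a GKAP adaptor with 66.1 and 64.7 for the control pair and 58.8 and 54.1 under knockdown (log2 change -0.21, limma's adjusted p = 0.140), and to Lrrc7 (densin), with 13.1 and 13.7 against 11.1 and 9.80 (-0.36, limma's adjusted p = 0.178). Under overexpression Dlgap1 had 61.8 and 59.9, also below both EGFP libraries, and Lrrc7 had 13.3 and 11.5, which overlapped EGFP. Dlgap1 and Dlgap3, which link the same families, thus lay on opposite sides of EGFP.

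For HOMER proteins, 13 of 15 partner genes were read and 11 tested, of which 2 had a higher mean log2 in CCNY-shRNA (50% of all genes did), with a median of -0.22 in CCNY-shRNA and -0.04 in CCNY-WT. None passed limma's adjusted threshold in either, and at an unadjusted p under 0.05, 3 were lower and 0 higher in CCNY-shRNA (9.36% and 9.20% of all genes), and 0 lower and 1 higher in CCNY-WT (3.00% and 3.83% of all genes). Grm5, the metabotropic glutamate receptor that HOMER couples to internal calcium stores, had 69.6 and 71.0 for the control pair, 63.6 and 62.6 under overexpression, and 61.9 and 52.6 under knockdown (log2 change -0.30 in CCNY-shRNA, limma's adjusted p = 0.117). Dnm3, a dynamin that positions endocytosis beside the postsynaptic density through HOMER, averaged 26.1 for the control, 23.5 under overexpression and 21.5 under knockdown (-0.28 in CCNY-shRNA, limma's adjusted p = 0.183). Itpr1, the IP3 receptor, had 20.1 and 20.7 for the control pair, 19.6 and 20.1 under overexpression, and 18.1 and 16.9 under knockdown (-0.22 in CCNY-shRNA, limma's adjusted p = 0.217). Both CCNY-shRNA libraries were below both EGFP libraries in these 3 genes, which were named for the smallest p-values in this comparison. Of the 11 tested, 7 lay below without overlap and 1 above in CCNY-shRNA, against 24.5% and 23.9% of all genes. In CCNY-WT, 4 lay below and 1 above, against 19.2% and 20.3%. A lean downward in CCNY-shRNA was not particular to HOMER partners. Below and above without overlap were 9 and 2 of 18 DLG partners, and 12 and 1 of 23 other excitatory postsynaptic scaffolds. SHANK partners (5 and 4 of 16) and presynaptic active zone scaffolds (2 and 2 of 14) showed little or none of it. The summed astrocyte markers, which overlapped between CCNY-shRNA and EGFP, the summed oligodendrocyte lineage markers, which did not (55.0 to 56.0 in EGFP against 47.5 to 49.5 FPKM), and Gad2 were lower in mean in CCNY-shRNA as well, and their part in the HOMER partner values was not tested.

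**Figure D4:**
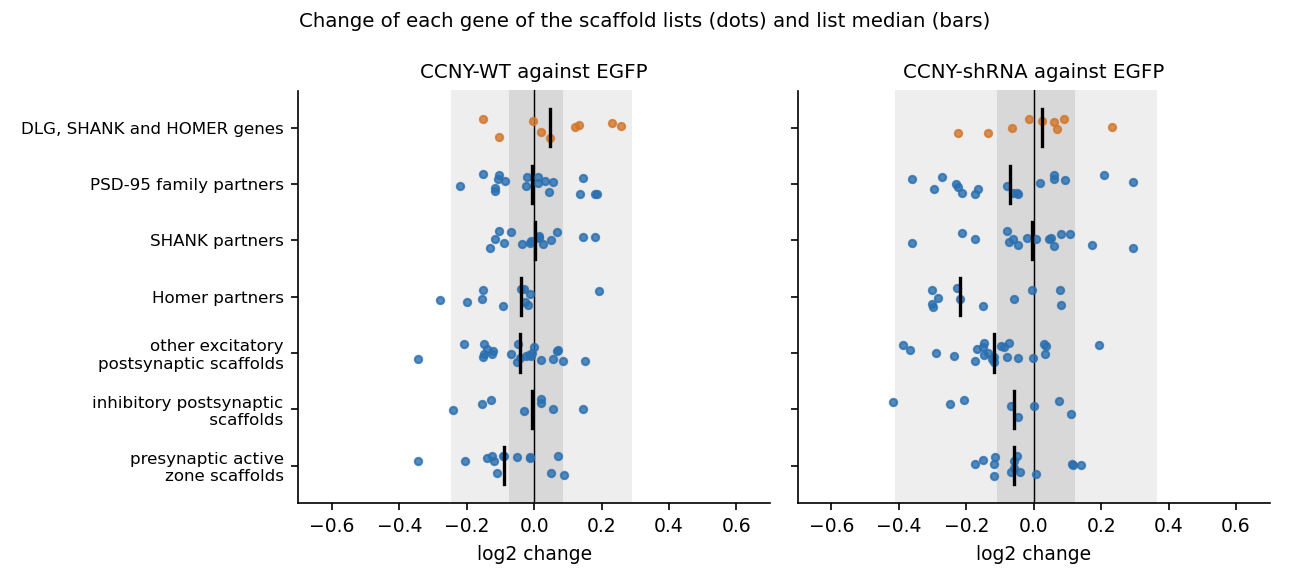
Log2 change of each gene (dots) and median (black bars) for the 9 scaffold genes (orange) and 6 other lists (blue), in CCNY-WT (left) and CCNY-shRNA (right) against EGFP; grey bands hold the central 50% and 95% of the genes with a mean FPKM of at least 5. In CCNY-shRNA the median is 0.02 for the scaffold genes, -0.07 for DLG partners and -0.22 for HOMER partners, and 0 genes of these lists passed the adjusted threshold.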

How the data were processed

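Poly-A RNA was sequenced in 6 libraries as 150-bp read pairs. The authors mapped reads to rn4 with TopHat2 2.0 and Bowtie2 2.1.0 and deposited FPKM from Cufflinks 2.2.1, with SAMtools 0.1.19 and R 3.1.0 also named in the submitters' processing notes. The annotation, the use of strand and any scaling between libraries are not given in the sources used here.

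From these values, FPKM was floored to 1, taken as log2 and tested with limma 3.58.1 in R 4.3.3 (lmFit, eBayes with an intensity trend), with Benjamini-Hochberg adjustment over 10188 genes with FPKM of 1 or more in at least 2 libraries. The fit was also run on simulated data with changes larger than those of the scaffold genes, which says little about changes of their size. Conditions came from the sample labels. All list members and Ccny were named, and from each other list the genes past an adjusted p of 0.05 plus the 3 with the smallest p in CCNY-shRNA against EGFP. Members and lists were chosen with earlier results of these data known. Alternatives changed the offset, filter, scaling, variance model, libraries and block. A few genes that this rule names are not reported here.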

Additional observations from a re-analysis of the deposited data

How the results depend on the processing

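No scaffold gene passed limma's adjusted threshold under any of 10 alternatives. In CCNY-WT against EGFP only 1 gene of all 10188, Ccny itself, passed in the main fit, and 1 to 3 passed under the alternatives. The absence of scaffold genes there therefore says little. Over the 10 alternatives and the fits with 1 of the 6 libraries left out, 419 log2 changes of single genes kept their direction and side of the threshold. The other 13 turned direction. Under upper quartile scaling, Homer3 in CCNY-shRNA against EGFP turned to 0.0048 and Shank1 in CCNY-WT against EGFP to 0.0021. Leaving out 1 library, changes against EGFP ranged from -0.0066 to 0.046 for Dlg2 and -0.041 to 0.036 for Shank1 in CCNY-WT, and from -0.046 to 0.19 for Homer2 and -0.17 to 0.15 for Homer3 in CCNY-shRNA. Between CCNY-shRNA and CCNY-WT they ranged from -0.0099 to 0.033 for Dlg4, -0.30 to 0.025 for Homer3, -0.091 to 0.12 for Shank2 and -0.055 to 0.0014 for Shank3. The median of the 9 genes ranged from 0.024 to 0.082 (CCNY-WT against EGFP), -0.029 to 0.028 (CCNY-shRNA against EGFP) and -0.091 to -0.054 (CCNY-shRNA against CCNY-WT). A condition left with 1 library was assumed to vary like the others, and the cause of these shifts was not tested.

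The background of calls over all genes depended far more on the settings. For CCNY-shRNA against EGFP, 17 genes were higher and 59 lower, but 0 and 1 without a variance trend or with only the 4 libraries compared, 1 and 1 without a filter, and 30 and 78 with a mean FPKM filter. Leaving out CCNY-shRNA replicate 1 gave 1 and 6, CCNY-shRNA replicate 2 gave 1 and 4, and each of the other 4 libraries 0 and 1.

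With the replicate block, the knockdown comparison with EGFP gave 8 higher and 31 lower genes, 0 of the scaffold genes passed, and limma's adjusted p was 0.121 for Shank3 and 0.162 for Dlg3. Deviations of same-numbered libraries correlated at 0.14 (EGFP and CCNY-WT), -0.03 (EGFP and CCNY-shRNA) and 0.14 (CCNY-WT and CCNY-shRNA) over 8055 genes. Such correlations cannot tell whether same-numbered libraries shared a culture or preparation.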

Other observations

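Other scaffold and synapse lists held no gene past limma's adjusted threshold in CCNY-WT or CCNY-shRNA against EGFP. Of 23 other excitatory postsynaptic scaffolds, 1 was higher and 4 were lower at an unadjusted p under 0.05 under knockdown (median log2 change -0.12), a level that 9.20% of all genes reached in the higher and 9.36% in the lower direction. The smallest p-values belonged to Synpo, the spine apparatus protein (-0.24, limma's adjusted p = 0.167), Apba1 (0.20, limma's adjusted p = 0.214) and Caskin1 (-0.15, limma's adjusted p = 0.260). Of 8 inhibitory postsynaptic scaffolds, 3 were lower at that level and 0 higher (median -0.06), among them Insyn1, listed as RGD1562618 (-0.25, limma's adjusted p = 0.0879) and Insyn2a, listed as Fam196a (-0.42, limma's adjusted p = 0.239). Of 14 presynaptic active zone scaffolds, 0 were at that level (median -0.06), with Erc1 at -0.12, Rimbp2 at 0.14 and Ppfia3 at 0.11. Of 17 activity-regulated genes, 3 were lower and 0 higher (median -0.09), which were Ptgs2 (-0.47, limma's adjusted p = 0.0853), Nr4a1 (-0.49, limma's adjusted p = 0.105) and Nr4a2 (-0.37, limma's adjusted p = 0.207). In CCNY-WT, 3 of the 17 were lower and 1 higher at that level (3.00% and 3.83% of all genes). Ptgs2 and Nr4a1 were below both EGFP libraries there too, and Nr4a2 overlapped them. Of the postsynaptic genes named here, Synpo, Caskin1 and Insyn1 were below both EGFP libraries in CCNY-WT, and Apba1 and Insyn2a above both.

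Among cell type markers in CCNY-shRNA against EGFP, Neurod2 was at 0.40 (limma's adjusted p = 0.0819) and Neurod6 at -0.20 (limma's adjusted p = 0.137). Of 8 astrocyte markers tested, 3 were lower at an unadjusted p under 0.05 (9.36% of all genes), which were Slc1a2 (-0.32, limma's adjusted p = 0.0768), Slc1a3 (-0.24, limma's adjusted p = 0.183) and Fgfr3 (-0.47, limma's adjusted p = 0.236). Of the oligodendrocyte lineage list, Olig1 was at -0.30 and Cnp at -0.20, and the summed FPKM of the list was 55.0 to 56.0 in EGFP and 47.5 to 49.5 in CCNY-shRNA. Cd68 was the 1 microglial marker tested (0.01), and of the vascular and meningeal list Lum (-0.16) and Dcn (0.24) were tested.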
